A study of Mus musculus with 4 samples.

Results

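The genes of cytosolic ribosomal proteins were examined in group 2 innate lymphoid cells (ILC2s) sorted from the bronchoalveolar lavage (BAL) fluid of mice. They were taken by symbol: every row whose symbol starts with Rpl or Rps and a digit, plus Rplp0, Rplp1, Rplp2 and Rpsa, without S6 kinases and rows marked as pseudogenes. The rule took 89 of 24537 genes, 54 with large subunit symbols and 35 with small subunit symbols. It also takes Rps19bp1, which encodes a binding protein of Rps19 and no ribosomal protein, and 9 paralogs such as Rpl22l1 and Rps27l. Of the 89 genes, 83 reached a mean level of 2 RPKM (reads per kilobase of exon, scaled to the mapped reads of the library) and were tested, 49 with large and 34 with small subunit symbols.

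The comparison was between 2 treatments with 2 libraries each, and no library of untreated mice was among them. In the IL-33 group, mice received 3 doses of 0.5 µg of the alarmin IL-33 in the airways. In the chronic HDM group, mice received 25 µg of house dust mite extract in the airways 3 times a week for 5 weeks. Cells were sorted 1 day after the final challenge as lineage-negative, Sca-1-positive and YFP-positive cells of Gata3-YFP reporter mice, aged 8 to 16 weeks. By the labels, the IL-33 mice carried the reporter on both alleles (Gata3-YFP/YFP) and their population was CD25High, while the chronic HDM mice were Gata3-YFP/WT with a CD25Low population. The methods of the study speak of homozygous reporter mice alone and name no CD25 gate for these cells, so labels and methods disagree here. By the labels, treatment, genotype and CD25 level cannot be told apart in any difference given here. The libraries are described as biological replicates. The number of mice in each is not given in the sources used here, so the spread between the 2 libraries of a group may be partly technical. The p-values rest on this spread only in part. The test, limma, draws each gene's variance toward a trend over all genes tested.

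A ribosome reads messenger RNA on its small subunit and joins amino acids on its large subunit, and each subunit is a body of ribosomal RNA with many proteins, most of them present in a single copy. Copies made in excess of the other proteins are degraded in the cell. In mammals their mRNAs begin with a terminal oligopyrimidine (TOP) tract, a run of C and T bases in the gene at the start of transcription, through which the mTOR pathway and LARP1 set their translation. Activated lymphocytes raise ribosome production before they divide. The genes also have many processed copies elsewhere in the genome, which matters for assigning short reads.

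The start sites of 9 genes are shown here as examples of C and T runs near the start. Each is 30 bases, 5′ to 3′ on the gene's strand, from RefSeq start sites on GRCm38.p6, and capitals mark the longest run of C or T within 40 bases before and 20 bases after the start. The first 3 genes had higher mean levels in IL-33-stimulated ILC2s. The other 6 had higher mean levels in chronic HDM-stimulated ILC2s.
Rpl4: gtgacaagTCTTTCCTTTTCCTgtgggagc
Rpl15: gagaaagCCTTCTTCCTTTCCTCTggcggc
Rpl5: gcctacagccaCTCTTTCTCacgtcgcttg
Rplp2: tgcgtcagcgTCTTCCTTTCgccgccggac
Rpl34: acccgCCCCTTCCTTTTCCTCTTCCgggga
Rpl35a: cggggcttgCCTTCCTCTTTCCgccatctt
Rps10: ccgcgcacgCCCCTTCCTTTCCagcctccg
Rps24: ccgcgctggggTCCTTCCTTgcgcgttgat
Rps28: tctgtcccgaggaTTCCTgggtaccgcgtg
These windows lie at chr9:64173361-64173390 on the plus strand for Rpl4, chr14:18270968-18270997 on the minus strand for Rpl15 and chr5:107900497-107900526 on the plus strand for Rpl5. Rplp2 lies at chr7:141447636-141447665 (plus), Rpl34 at chr3:130730330-130730359 (minus) and Rpl35a at chr16:33056468-33056497 (plus). Rps10 lies at chr17:27635227-27635256 (minus), Rps24 at chr14:24490664-24490693 (plus) and Rps28 at chr17:33824567-33824596 (minus). The runs of Rpl34 and Rpl15 were the longest shown, with 20 and 17 bases. Those of Rpl4, Rpl5 and Rps28 begin at -18, -20 and -21 bases from the listed start and end before it. The other runs shown cover the listed start. The longest run at the listed start of Rps28 had 5 bases, and this start lies upstream of the transcript counted in the files. Rpl34 and Rps24 have 2 listed starts each and Rpl35a has 3, of which 1 is shown. For Rpl34 and Rpl35a the start shown lies within the span of the counted transcript. The listed starts at the 5′ end of that transcript had longest runs of 8 and 4 bases. Rpl41 and Rpl37a, also with higher mean levels after chronic HDM, are not shown and had longest runs of 4 and 5 bases.

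A run of at least 7 C or T bases was present at 49 of 80 start sites of the 68 ribosomal protein genes with an entry, or 61.25%. On the same strand, 11583 of all 32851 start sites held one, or 35.3%. On the opposite strand the shares were 22.5% for the ribosomal protein genes and 36.9% for all. Among tested genes with an entry, the 41 with such a run had a median log2 fold change (IL-33 relative to chronic HDM) of -0.32 and the 21 without one had a median of -0.15. A match describes the letters in this window only.

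RNA-seq libraries held 12054781 and 10696041 reads in genes for IL-33 and 16092268 and 15650722 for chronic HDM, as recovered from the RPKM steps. The locus of 45S ribosomal RNA, Rn45s, took 4.95 and 3.45% of these reads after IL-33, against 17.4 and 25.4% after chronic HDM. All 10 ILC2 marker genes had reads, and 5 had a log2 fold change above 0 and 5 below 0. Gata3, the gene that carries the reporter, was at 14.9 and 18.9 RPKM after IL-33, against 216 and 195 RPKM after chronic HDM (limma adjusted p = 0.00665). Il1rl1 was at 77.3 and 79.9 RPKM against 217 and 205 RPKM (limma adjusted p = 0.00994). Il5 lay the other way, with 738 and 626 RPKM against 151 and 145 RPKM (limma adjusted p = 0.00665). The 13 macrophage markers summed to 1274 and 288 RPKM after IL-33, against 3115 and 8736 RPKM after chronic HDM, mostly from Chil3 and Lyz2. Adgre1 had 0 and 0.026 RPKM after IL-33, against 9.25 and 3.43 RPKM after chronic HDM, and 6 of the 13 were at 0 in the first chronic HDM library. All 9 macrophage markers tested had a log2 fold change below 0. Of 9 T cell genes, Cd4, Cd8a, Cd8b1 and Cd5 were listed at 0 and Cd3g was at 68.8 to 101 RPKM. Of 7 B cell genes, 5 were listed at 0 and Cd79b was at 38.4 and 27.4 RPKM against 8.74 and 6.67 RPKM. Among other cell types, the basophil gene Mcpt8 was at 45.8 and 39.2 RPKM against 0 and 0 (limma adjusted p = 0.00665). The neutrophil gene S100a8 was at 0.395 and 0 RPKM against 14.1 and 6.46 RPKM, while 4 of 6 neutrophil genes were listed at 0 throughout. Epithelial genes went both ways. Epcam was at 3.65 and 1.91 RPKM against 21.5 and 9.07 RPKM, and Scgb1a1 at 1.65 and 0.368 RPKM against 0 and 64.6 RPKM. Krt18 was at 4.28 and 2.88 RPKM against 0 and 0, and Sftpc at 4.32 and 0 RPKM against 0 and 0. The part of RNA of these cell types and of Rn45s in the results below was not tested. In RNA of sorted populations, fewer cells of a type and less RNA per cell cannot be told apart.

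First, it was asked how much of the RNA the ribosomal protein genes made up. Their reads made up 1.77 and 1.62% of the reads in genes in IL-33-stimulated ILC2s and 1.60 and 1.87% in chronic HDM-stimulated ILC2s, so the groups overlapped. The summed level was 18510 and 16304 RPKM after IL-33, against 17136 and 20707 RPKM after chronic HDM, again with overlap. Leaving Rn45s out of the total, the shares were 1.86 and 1.68% against 1.94 and 2.51%, and the chronic HDM libraries then both lay above the IL-33 libraries. With 2 libraries against 2, an exact permutation test cannot give a two-sided p under 0.33.

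The share of these reads that came from small subunit symbols was 39.6 and 38.9% after IL-33, against 46.7 and 48.6% after chronic HDM. A single large subunit gene, Rpl4, held 20.4 and 22.1% of all ribosomal protein reads after IL-33, against 11.1 and 9.01% after chronic HDM. Without Rpl4, the small subunit share was 49.8 and 49.9% against 52.5 and 53.4%. The groups stayed apart, by a smaller distance.

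Levels differed far more between the genes than between the groups. Mean levels over the 4 libraries ran from 2.76 RPKM (Rpl9) to 1684 RPKM (Rpl4) among the genes tested, a 609-fold range, with 42 genes above 100 RPKM and 11 under 10 RPKM. The order of levels was nearly the same within a group, with Pearson's r of 0.99 across the 83 genes both between the IL-33 libraries and between the chronic HDM libraries on the log2 scale. Rps9, Rpl32, Rplp0, Rpl8 and Rps14 were also among the 8 highest mean levels.

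It was next examined how many bases of these genes can be told from copies. Of all 51-base stretches (the read length) in each transcript, a median of 53.8% over the 89 genes occurred in no other annotated gene of GENCODE. For 85 genes at least 1 stretch also occurred in a pseudogene, for 19 genes under 25% of the stretches were unique, and for 11 genes over 90% were. A stretch of 30 bases of coding sequence from Rps12 (chromosome 10) and another from Rpl4 (chromosome 9) show both ends of this range.
Rps12: tatgtcaagctggtggaggcactttgtgct
Rpl4: agggggccctgcatcatctataatgaagat
The stretch of Rps12 was found in 22 other annotated genes, 20 of them pseudogenes, and that of Rpl4 in 0. Rps12, a small subunit protein needed in every cell, was listed at 1.35 and 0.501 RPKM after IL-33, against 0.306 and 1.28 RPKM after chronic HDM. Its reads numbered 3 to 12 in a library, and 16.5% of its stretches were unique. Rpl9, the lowest gene tested, had the lowest unique share of all, at 6.69%, and 2.56 and 2.50 RPKM against 3.71 and 2.28 RPKM. The levels of such genes are uncertain, as the file headers name the read sets as unique.

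Low uniqueness did not always go with a low level. Rps18, a protein of the head of the small subunit, had 13.5% unique stretches and 389 and 357 RPKM after IL-33 against 284 and 356 RPKM after chronic HDM. Across the 83 genes tested, the unique share and the log2 mean level had r = 0.31 (Spearman's rho 0.25), and over the 88 genes with reads r = 0.17 (rho 0.17). The unique share and the fold change had r = 0.01 (rho 0.02). Genes are not independent replicates, so these values are descriptions.

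**Figure D1:**
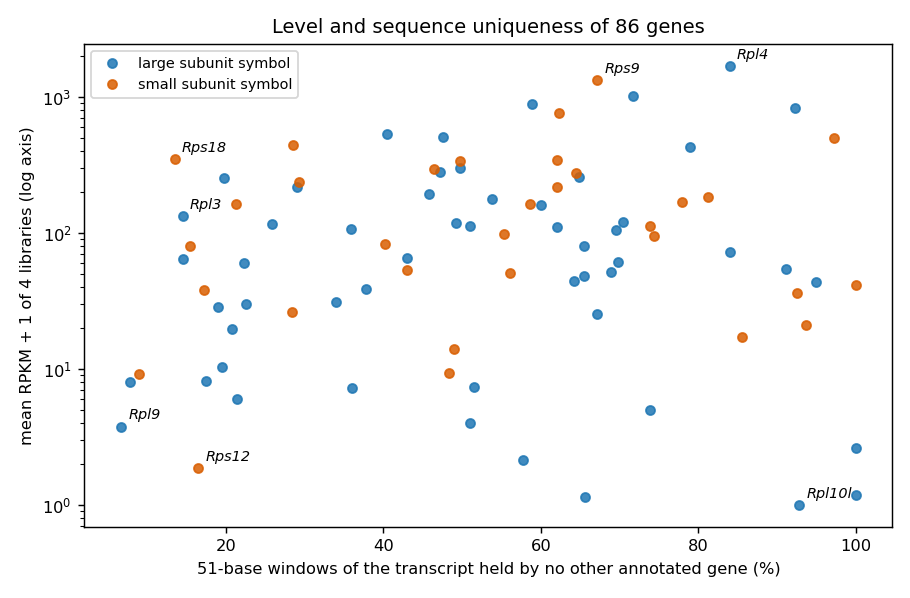
Mean RPKM plus 1 of the 4 libraries (log axis) against the percentage of 51-base stretches of the transcript that no other annotated gene holds, for 86 of the 89 ribosomal protein genes, each a point coloured by subunit symbol. Rps12 and Rpl9 lie at the lower left, with 16.5 and 6.69% unique, and Rpl4 at the upper right with 84.0%.

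Next, IL-33-stimulated and chronic HDM-stimulated ILC2s were compared gene by gene, with limma on log2(RPKM + 1) over the 9523 genes that reached the minimum level. Fold changes are on this scale, which understates those of low genes, and are positive where IL-33 was higher. A gene was called if its Benjamini-Hochberg adjusted p was under 0.01 and its log2 fold change exceeded 1 in size. Only Rpl4 was called higher after IL-33 and only Rps28 was called higher after chronic HDM, each 1 of 83 genes or 1.2%. Over all genes tested, 2.8% were called higher after IL-33 and 0.536% higher after chronic HDM. Unadjusted p was under 0.05 for 43 of the 83 genes (51.8%), beside 36.7% of all genes.

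At an adjusted p under 0.05 with the same minimum fold, 4 genes (4.82%) were higher after IL-33 and 18 (21.7%) were higher after chronic HDM, against 13.8% and 4.78% of all genes tested. Those higher after IL-33 were Rpl4, Rpl7l1, Rpl15 and Rpl23a. The median log2 fold change of the 83 genes was -0.14, with quartiles of -0.87 and 0.47, and that of all genes was 0.28. Of the 83 genes, 36 (43.4%) lay above 0, beside 60.9% of all genes. Large subunit symbols had a median of -0.03 (49 genes) and small subunit symbols one of -0.33 (34 genes). Under quantile normalization, median-of-ratios scaling and scaling without Rn45s, the median of the ribosomal protein genes was -0.60, -0.33 and -0.39 and that of all genes 0.00, 0.07 and 0.03.

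In 27 genes (32.5%) both IL-33 libraries lay above both chronic HDM libraries, where the background was 41.7%. In 39 genes (47%) both chronic HDM libraries lay above both IL-33 libraries, where the background was 23.5%. The remaining 17 of the genes tested overlapped. Replicates also differed in a shared direction: the first IL-33 library was above the second in 68 of the 83 genes, beside 48.8% of all genes tested. The first chronic HDM library was above the second in 10 of the 83, beside 54.5% of all genes. The macrophage marker sum and the Rn45s share followed the same order of libraries within each group, and their part in this was not tested.

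**Figure D2:**
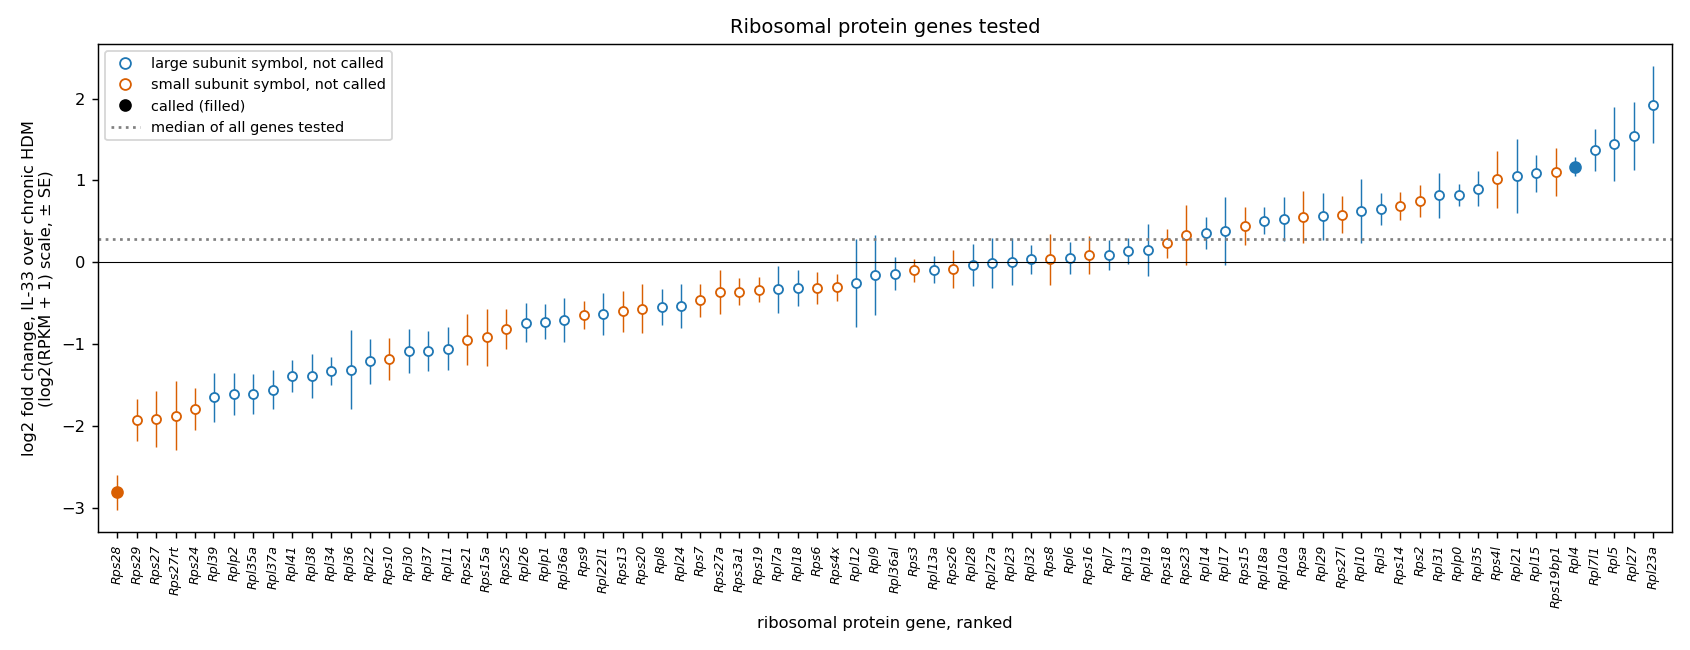
Log2 fold change of IL-33 relative to chronic HDM (log2(RPKM + 1) scale) with its SE for 80 of the 83 ribosomal protein genes tested, ranked and coloured by subunit symbol, with filled points for called genes and a dotted grey line for the all-gene median. Only Rps28 (-2.82) and Rpl4 (1.17) are filled, and 46 of the points lie below 0.

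Rps28, a short protein at the exit of the mRNA channel of the small subunit, had the largest difference. Its level was 97.8 and 69.2 RPKM in the IL-33 libraries and 565 and 607 RPKM in the chronic HDM libraries, from 411, 261, 3484 and 3582 reads. The means were 83.5 ± 20.2 and 586 ± 29.7 RPKM (SD, n = 2 each), a 7.01-fold difference that was many times the distance between replicates. The log2 fold change was -2.82 (SE 0.22, limma adjusted p = 0.00687). The gene lies at chr17:33823037-33824498 on the minus strand (mm10), its counted exons span 321 bases, and 49.7% of its stretches were unique. Without the first or the second IL-33 library the log2 fold change was -3.06 or -2.57 and no gene of the table was called, with adjusted p of 0.324 and 0.297. It was also not called with a pseudocount of 0.1, without the minimum level, without limma's trend or with limma-voom.

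Rpl4, which lines the tunnel through which the new protein leaves the large subunit, had the highest level of all and the lowest SE among these genes. It was at 2356 and 2305 RPKM after IL-33, against 1059 and 1017 RPKM after chronic HDM. The means were 2331 ± 35.8 and 1038 ± 29.4 RPKM (SD, n = 2 each), a 2.25-fold difference. The log2 fold change was 1.17 (SE 0.12, limma adjusted p = 0.00696). Rpl4 lies at chr9:64173387-64178562 on the plus strand, with 84.0% of its stretches unique. The call was lost without either IL-33 library (log2 fold changes of 1.15 and 1.18, adjusted p of 0.324 and 0.297). Scaling by median of ratios or without Rn45s gave 0.93 and 0.88, under the minimum fold, and the call was lost under the same 4 settings as that of Rps28.

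The other proteins of the tunnel and its exit differed among themselves. Of 7 tested, 5 had a log2 fold change above 0 and the median was 0.39. Of all genes tested, 60.9% lay above 0 and the median was 0.28. Rpl23a, a docking site at the tunnel exit, was at 10.7 and 12.8 RPKM after IL-33, against 1.51 and 3.45 RPKM after chronic HDM, where it had 16 and 35 reads (log2 fold change 1.92, SE 0.47, adjusted p = 0.0429). Rpl39, a small protein of the narrow part of the tunnel, went the other way, with 40.9 and 27.4 RPKM against 91.9 and 126 RPKM (log2 fold change -1.65, adjusted p = 0.0203). Rpl35 and Rpl31, next to the exit, had log2 fold changes of 0.90 and 0.82, and Rpl26, Rpl19 and Rpl17 had -0.74, 0.15 and 0.39. None of these 5 passed the looser threshold with its minimum fold.

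The stalk of the large subunit, which recruits elongation factors, is built of Rplp0 with pairs of Rplp1 and Rplp2 on a base formed with Rpl12. Rplp0 was at 1195 and 1073 RPKM after IL-33, against 624 and 655 RPKM after chronic HDM, with no overlap and a log2 fold change of 0.82 (SE 0.13, adjusted p = 0.016), under the minimum fold. Rplp2 was at 60.0 and 42.6 RPKM against 142 and 173 RPKM, a log2 fold change of -1.61 (SE 0.25, adjusted p = 0.0148), so it passed the looser threshold in the opposite direction. Rplp1 was at 450 and 348 RPKM against 567 and 757 RPKM (-0.73, adjusted p = 0.0693). Rpl12 was read at 2.07 to 4.88 RPKM, from 19 to 59 reads a library, and its groups overlapped. The level of the stalk genes thus spanned both directions.

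Rpl5 and Rpl11 enter the large subunit together with 5S ribosomal RNA, and free of the ribosome they bind Mdm2, the ligase that degrades p53. Rpl5 was at 8.89 and 10.5 RPKM after IL-33, against 2.07 and 4.0 RPKM after chronic HDM, with a log2 fold change of 1.44 (SE 0.45) that did not pass (adjusted p = 0.079). Rpl11 was at 26.1 and 21.7 RPKM against 45.9 and 55.8 RPKM and passed the looser threshold in the opposite direction (-1.06, SE 0.26, adjusted p = 0.0441). Neither pair of groups overlapped. Of 8 tested genes of p53 and its ribosome sensor, limma called 0. Over all genes tested it called 2.8% higher after IL-33 and 0.536% higher after chronic HDM. Limma-voom called 0 of all genes, so its 0 here cannot set these genes apart. In limma, 5 of the 8 had an unadjusted p under 0.05, beside 36.7% of all genes. Mdm2 and Ccng1 passed the looser threshold, with log2 fold changes of 1.09 and 1.20 and adjusted p of 0.0377 and 0.0225. At that threshold 13.8% of all genes were higher after IL-33.

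**Figure D3:**
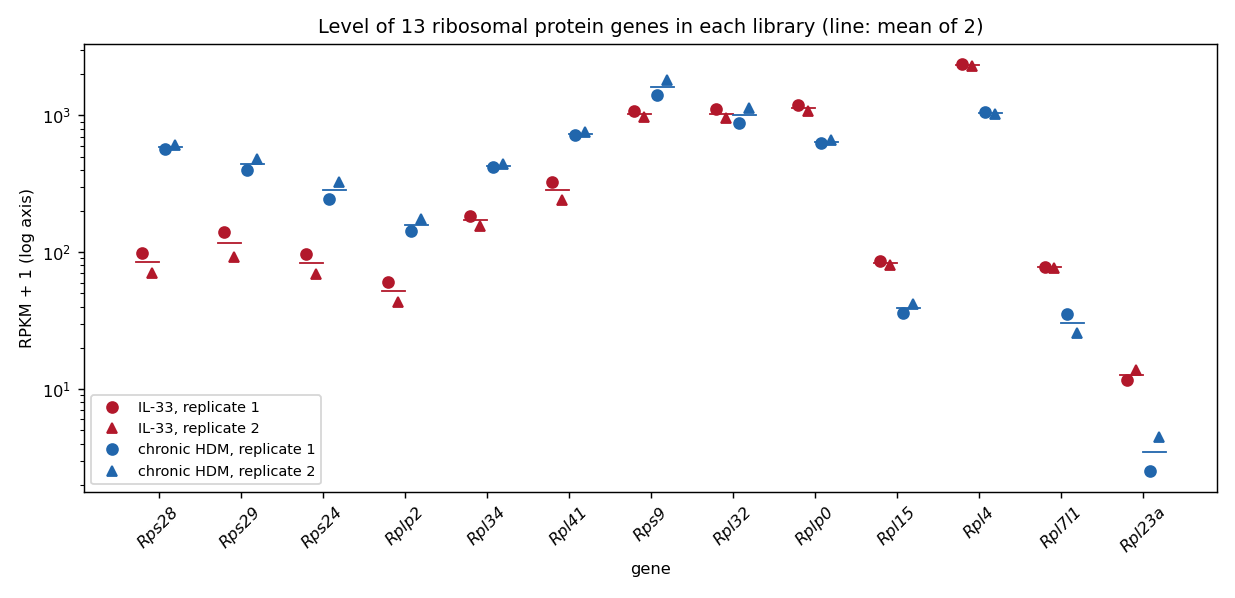
RPKM plus 1 (log axis) of 13 ribosomal protein genes in each of the 4 libraries, with red for IL-33, blue for chronic HDM, circles for replicate 1, triangles for replicate 2 and a line at the mean of the 2 libraries of a group. Rps28 shows the widest gap between groups, the libraries of Rpl32 overlap, and Rpl4, Rpl15, Rpl7l1 and Rpl23a lie higher after IL-33.

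In the small subunit, 9 proteins line the channel of the mRNA or its entry and exit. Apart from Rps28, none of them passed the looser threshold with its minimum fold. Rps2 and Rps14 had log2 fold changes of 0.75 and 0.69 with adjusted p of 0.0492 and 0.0449, and Rps15 had 0.44. Rpsa, also known as the laminin receptor, was at 60.9 and 56.1 RPKM against 30.1 and 51.9 RPKM (0.55, adjusted p = 0.268). Rps3, at the entry, had 483 and 479 RPKM against 489 and 544 RPKM. Of the 9, 6 lay above 0, with a median of 0.33, beside 60.9% of all genes above 0 and an all-gene median of 0.28.

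Proteins of the head, beak and back of the small subunit lay mostly lower after IL-33. Of 9 tested, 7 were below 0 with a median of -0.57, and 3 passed the looser threshold. Small subunit symbols as a whole, which include these 9, had 21 of 34 below 0 and 7 past that threshold on the chronic HDM side. Among all 83 ribosomal protein genes tested, 47 lay below 0 and 18 passed it on that side. Of all genes tested, 60.9% lay above 0, and 4.78% passed that threshold higher after chronic HDM. Rps29, a zinc-binding protein of the head, was at 140 and 91.8 RPKM after IL-33, against 398 and 475 RPKM after chronic HDM, a 3.76-fold difference (log2 fold change -1.93, SE 0.25, adjusted p = 0.0108). Rps10, among the genes mutated in Diamond-Blackfan anaemia in humans, was at 64.2 and 51.9 RPKM against 111 and 158 RPKM (-1.19, SE 0.26, adjusted p = 0.0323). Rps19, the gene most often mutated in that disease, was at 267 and 253 RPKM against 312 and 344 RPKM (-0.34, SE 0.16), with no overlap and no call. Rps27a, which is made as a fusion to ubiquitin, was at 49.6 and 41.3 RPKM against 49.3 and 68.8 RPKM and overlapped.

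Other small subunit genes lay outside these lists. Rps24 was at 95.4 and 68.1 RPKM after IL-33, against 246 and 324 RPKM after chronic HDM, a 3.48-fold difference (log2 fold change -1.79, SE 0.25, adjusted p = 0.012). Rps27 was at 4.68 and 4.92 RPKM against 23.3 and 18.8 RPKM (-1.92, adjusted p = 0.0201). The row Rps27rt overlaps Rps27, held 2.70 and 3.01 RPKM against 16.3 and 10.6 RPKM and gave -1.88, so they may hold the same reads and are 1 observation at most. Rps6, the protein that S6 kinases phosphorylate, was at 73.4 and 68.0 RPKM against 90.1 and 86.7 RPKM (-0.32, SE 0.20, adjusted p = 0.296). Rps9, the second highest gene, was at 1072 and 978 RPKM against 1406 and 1822 RPKM (-0.64, adjusted p = 0.0497).

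Among the remaining large subunit genes, short ones were prominent on the chronic HDM side. Rpl41, which encodes the shortest ribosomal protein, was at 327 and 238 RPKM after IL-33, against 714 and 754 RPKM after chronic HDM (log2 fold change -1.39, SE 0.20, adjusted p = 0.0121). Rpl34 was at 184 and 156 RPKM against 415 and 437 RPKM (-1.33, SE 0.17, adjusted p = 0.0101). A row of a processed copy, Rpl34-ps1, overlaps it and held 179 and 150 RPKM against 427 and 447 RPKM, so reads of the 2 rows cannot be told apart. Rpl35a, Rpl37a and Rpl38 had log2 fold changes of -1.61, -1.56 and -1.39, and Rpl30 and Rpl37 had -1.09 and -1.08, all past the looser threshold. Rpl15, a longer transcript, was at 84.5 and 79.1 RPKM against 35.2 and 41.1 RPKM in the other direction (1.09, SE 0.22, adjusted p = 0.0275). Rpl27 had the second largest log2 fold change above 0, at 1.54, and did not pass (adjusted p = 0.0551).

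Other highly expressed genes differed less. Rpl32 was at 1104 and 954 RPKM after IL-33, against 884 and 1136 RPKM after chronic HDM (0.03, SE 0.17). Rpl8 was at 713 and 622 RPKM against 802 and 1180 RPKM (-0.55, adjusted p = 0.135). Rps14 lay the other way, with 1014 and 863 RPKM against 520 and 645 RPKM. The sign of Rpl32 turned under scaling without Rn45s, where it was -0.25.

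The rule took 9 paralogs, copies related to a ribosomal protein gene, and 5 of them were tested. Rpl7l1, a factor related to Rpl7 that acts in the making of the large subunit, was at 77.1 and 76.3 RPKM after IL-33, against 34.1 and 24.5 RPKM after chronic HDM (log2 fold change 1.38, SE 0.26, adjusted p = 0.0226), while Rpl7 was at 298 and 275 RPKM against 239 and 301 RPKM (0.09). Rpl22, known for its role in lymphocyte development in mice, was at 21.8 and 28.3 RPKM against 67.1 and 51.7 RPKM (-1.21, adjusted p = 0.0367). Its paralog Rpl22l1 was at 60.0 and 41.9 RPKM against 75.5 and 81.7 RPKM (-0.64, adjusted p = 0.139). Rps27l, a p53 target, was at 230 and 174 RPKM against 120 and 148 RPKM (0.58, adjusted p = 0.127), above Rps27 in every library. The unique share of stretches was 78.0% for Rps27l and 49.0% for Rps27, so these levels are not strictly comparable. Rps4l, a copy related to Rps4x, had 18.0 and 26.0 RPKM against 11.3 and 9.20 RPKM (1.01, adjusted p = 0.0964) and Rps4x 403 and 382 RPKM against 441 and 535 RPKM (-0.31). Rpl36al had 184 and 151 RPKM against 203 and 167 RPKM and Rpl36a 54.2 and 41.2 RPKM against 67.0 and 90.3 RPKM. The unique shares of Rpl36al and Rpl36a were 53.8 and 14.5%, with the same limit.

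The other 4 paralogs and 2 further genes were below the minimum level. Rpl10l, active in male germ cells in mice, was listed at 0 in all 4 libraries, while Rpl10 was at 4.76 to 9.53 RPKM. Rpl3l, a form of Rpl3 in muscle and heart, had 0.739 RPKM in the second chronic HDM library and 0 elsewhere, beside 93.5 to 169 RPKM for Rpl3. Rpl39l had 90 reads in the first chronic HDM library (5.85 RPKM), 6 in the first IL-33 library and 0 in the other 2. Rpl37rt had 0.45 and 0.376 RPKM against 1.84 and 1.92 RPKM, and Rpl37 had 36.0 and 27.99 RPKM against 67.8 and 69.1 RPKM. Rpl32l had 0 and 0 against 0.353 and 0.185 RPKM, from 4 and 2 reads. Rps12, described above, was the sixth. A count of 3 reads on 1 kb of exon equals 0.156 to 0.255 RPKM in these libraries. Rps19bp1, not a ribosomal protein, was at 62.7 and 48.8 RPKM against 21.3 and 29.8 RPKM (1.10, adjusted p = 0.0526). Without it and the paralogs, 77 genes were tested and their median was -0.26.

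The differences followed transcript length. Ribosomal protein transcripts are short, with a median of 715 bases of counted exon, where the median of all genes tested was 2510. Among 19 genes of up to 500 bases, 17 had a log2 fold change below 0 and the median was -1.31. Among 28 genes over 500 and up to 750 bases the median was -0.21, and among 17 genes over 750 and up to 1000 bases it was 0.14. Among 14 genes over 1000 and up to 2000 bases, 10 lay above 0 and the median was 0.53. The 4 genes over 2000 and up to 4000 bases (Rpl5, Rpl7l1, Rpl22 and Rps20) had a median of 0.40, and the longest, Rps15a with 5127 bases, was at -0.92.

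Other genes of the same lengths gave a similar order up to 2000 bases. The medians of genes outside the set were -0.70 up to 500 bases (247 genes), 0.16 up to 750 bases (304), 0.44 up to 1000 bases (449) and 0.54 up to 2000 bases (2516). Above that they were 0.30 and 0.08. In the first 3 of these classes the ribosomal protein genes lay lower than the others, and between 1000 and 2000 bases they had nearly the same median. Across the 83 genes, log2 length and log2 fold change had r = 0.43 (Spearman's rho 0.50), and across all 9523 genes r = 0.01 (rho -0.08).

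Length also went with the difference between the IL-33 replicates. Across the 83 genes, log2 length and the log2 difference of the first IL-33 library over the second had r = -0.44 (rho -0.55), and across all 9523 genes r = -0.09 (rho -0.14). Genes of up to 500 bases were higher in the first library by a median of 0.43 on the log2 scale, and the 19 genes over 1000 bases by 0.11. Between the chronic HDM libraries the same relation had r = 0.00 (rho 0.05). The reads from the 19 genes of up to 500 bases made up 9.57 and 8.43% of ribosomal protein reads after IL-33, against 16.1 and 16.5% after chronic HDM. The part of transcript length in the calls above was not tested.

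**Figure D4:**
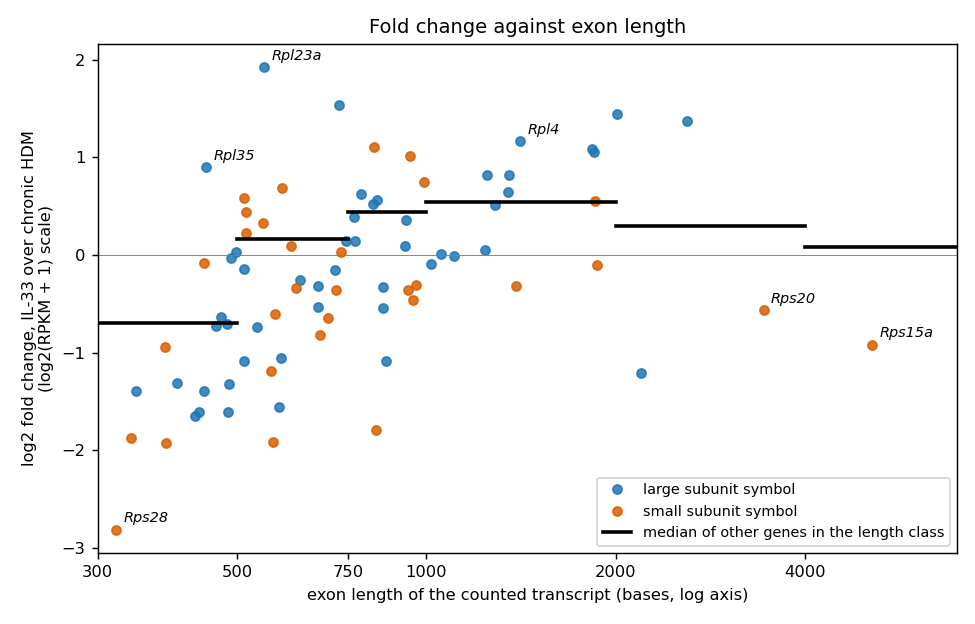
Log2 fold change of IL-33 relative to chronic HDM (log2(RPKM + 1) scale) against the exon length of the counted transcript (log axis) for 80 of the 83 ribosomal protein genes tested, with black lines at the median of the other genes in each length class. Points of up to 500 bases lie mostly below 0, with a median of -1.31, and those between 1000 and 2000 bases mostly above 0, with a median of 0.53.

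Finally, other genes of translation were set beside the ribosomal proteins. Of 3 ribosomal proteins whose symbols do not follow the rule, Rack1, a scaffold on the head of the small subunit, was at 802 and 692 RPKM after IL-33, against 252 and 320 RPKM after chronic HDM (log2 fold change 1.39, SE 0.18, adjusted p = 0.0109). Fau, made as a fusion to a ubiquitin-like protein, had -0.10. Of 19 tested genes of translation factors and other proteins with known TOP mRNAs, limma called 0. Over all genes tested it called 2.8% higher after IL-33 and 0.536% higher after chronic HDM. Limma-voom called 0 of all genes, so its 0 here cannot set these genes apart. In limma, 12 of the 19 had an unadjusted p under 0.05. At the looser threshold, 7 were higher after IL-33 and 0 were higher after chronic HDM. The median of the 19 was 0.90, and 15 of 19 lay above 0. Over all genes tested, 60.9% lay above 0 and 36.7% had an unadjusted p under 0.05 in limma. At the looser threshold, 13.8% of all genes were higher after IL-33 and 4.78% were higher after chronic HDM. The poly(A)-binding protein gene Pabpc1 was at 181 and 170 RPKM against 39.3 and 55.4 RPKM (1.89, adjusted p = 0.0101). The elongation factor genes Eef2 and Eef1a1 had 0.91 and -0.37 (adjusted p = 0.0353 and 0.127), and Tpt1 had -0.97.

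Of 27 other initiation factors tested, Eif5a, Eif3g, Eif5 and Eif6 were called higher after IL-33, none was called higher after chronic HDM, and the median was 1.04. Eif6, which keeps new large subunits from joining too early, was at 358 and 317 RPKM against 81.2 and 86.2 RPKM (2.00, SE 0.18, adjusted p = 0.00687). At the looser threshold 11 were higher after IL-33 and 1, Eif4a2, was higher after chronic HDM (-1.81, adjusted p = 0.0124). Among all genes tested, 2.8% were called higher after IL-33 and 0.536% higher after chronic HDM. At the looser threshold these shares were 13.8% and 4.78%. Of 13 chaperones and importers of single ribosomal proteins, all lay above 0, beside 60.9% of all genes. Of these 13, 1 was called: Grwd1, a chaperone of Rpl3, at 54.9 and 64.3 RPKM against 7.34 and 6.09 RPKM (2.97, SE 0.29, adjusted p = 0.00687). Rpl3 itself was at 169 and 155 RPKM against 93.5 and 113 RPKM (0.65, adjusted p = 0.0719). Of 13 genes of TOP control and S6 kinases, 1 was called, Eif4ebp1, at 244 and 213 RPKM against 58.9 and 45.6 RPKM (2.12, adjusted p = 0.00718). The median of the ribosomal protein genes, -0.14, thus lay below that of each of these lists, with no test made between lists. The lists were not matched for transcript length. Ribosomal protein transcripts had a median of 715 bases, beside 2510 for all genes tested. The part of length in the order of these medians was not tested.

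**Figure D5:**
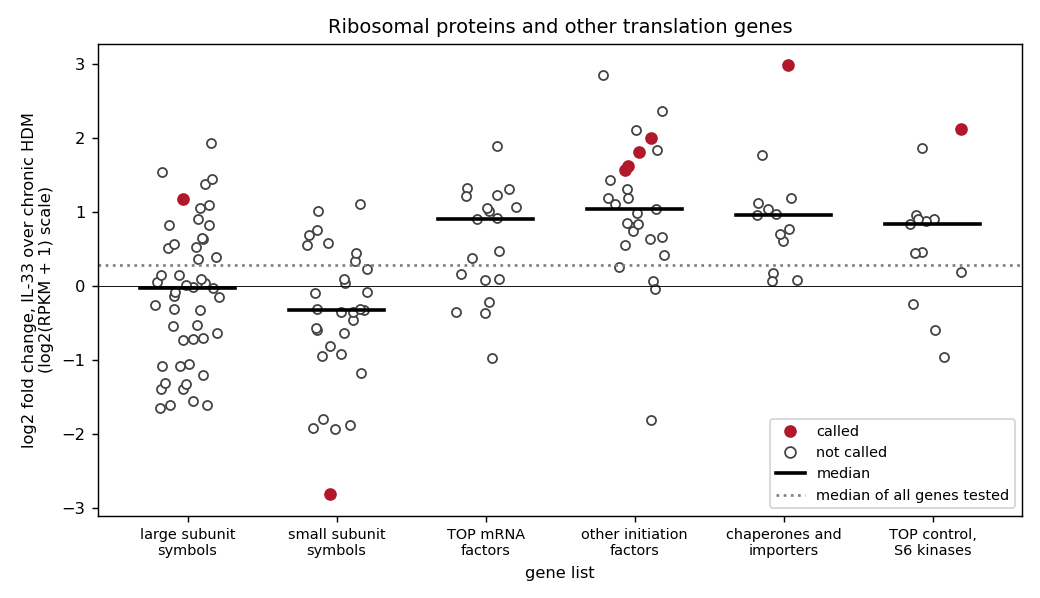
Log2 fold change of IL-33 relative to chronic HDM (log2(RPKM + 1) scale) of 80 of the 83 tested genes with large or small subunit symbols and of the tested genes in 4 other lists of translation genes, with filled red points for called genes, black lines for list medians and a dotted grey line for the all-gene median. The ribosomal protein medians are -0.03 and -0.33, and those of the TOP mRNA factors and other initiation factors 0.90 and 1.04.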

How the data were processed

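Smart-seq2 libraries of sorted BAL fluid ILC2s (2 IL-33, 2 chronic HDM) were sequenced by the authors as single 51-bp reads and aligned with HISAT2 to the mm10 build (the submitters' processing notes give version 2.0.4). The deposited values are RPKM, made by the authors with HOMER over the exons of 1 RefSeq transcript per gene after scaling to 10000000 reads. They hold no molecular identifiers, and strand use in counting is not stated. The files call the unit FPKM in the header.

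Here, limma 3.58.1 (R 4.3.3) with an intensity trend was run on log2(RPKM + 1) for the 9523 genes whose mean reached 2 RPKM, and tested on simulated data. RPKM was turned back into reads, whole within 0.1 read for 99.8 to 100% of values, giving the depths in the text. Reads are not independent molecules. The authors' own test was DESeq2 as run by HOMER.

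The genes named were those called, the 6 with the largest log2 fold change in each direction, the 8 with the highest mean, members of fixed structural lists, paralogs and those below the minimum. Examples beyond this rule were chosen after their values were seen. The members, lists and tests were chosen with earlier results of these data known. Stretches of 51 bases were matched to GENCODE vM21 transcripts. Start sites came from RefSeq on GRCm38.p6. Reads of a gene cannot be told from those of overlapping rows. Alternatives covered the pseudocount, minimum, scaling, limma settings, limma-voom on recovered reads, a replicate block and each library left out. Values of some single genes are not reported here, and counts, sums and medians include them.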

Additional observations from a re-analysis of the deposited data

How the results depend on the processing

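Calls were few and depended on settings. Ribosomal protein genes called higher after IL-33 and after chronic HDM (1 and 1) numbered 0 and 0 with a pseudocount of 0.1, without the minimum level, without limma's trend and with limma-voom, where all-gene counts (267 and 51) were also 0 and 0. They numbered 1 and 5 with a pseudocount of 2, and 1 and 2 with robust variances. With a minimum of 10 RPKM they were 1 and 10 (all genes 639 and 152), with quantile normalization 1 and 9 (148 and 119), with median-of-ratios scaling 0 and 1 (85 and 40), with scaling without Rn45s 0 and 1 (53 and 29), and at an adjusted p under 0.05 they were 4 and 18 (1311 and 455). Leaving out each library gave 0 to 7 and 0 to 18 genes (all genes 0 to 1960 and 0 to 664). Without an IL-33 library 0 genes were called. Without the first chronic HDM library 2 and 18 were called and without the second 7 and 12. In these fits the lone library is taken to vary like the other group. The cause was not tested.

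The median of -0.14 was -0.31 with the higher minimum, -0.33 with median of ratios, -0.60 with quantile normalization and -0.39 without Rn45s. Leaving out a library gave -0.28 to -0.12. Without Rn45s the summed level was 20756 and 27770 RPKM after chronic HDM. Whether the replicate numbers pair the libraries is not known. Deviations of same-numbered libraries had a correlation of -0.04 across genes, which cannot decide it with 2 libraries per group. A fit with the replicate block called 2 and 12 genes (all genes 987 and 267).

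Of 534 single-gene values, 474 kept direction and side of the threshold. In 4 genes with log2 fold changes between -0.26 and 0.09, 13 values changed sign. Only Rpl4 and Rps28 were called in the main fit. Settings that called 0 genes kept all other genes on their side of the threshold by construction. The 474 thus does not measure how stable the calls were. Under median-of-ratios, quantile and Rn45s-free scaling, Rpl32 was -0.20, -0.32 and -0.25 and Rpl7 was -0.14, -0.45 and -0.19. With limma-voom, Rpl32 and Rpl7 were -0.078 and -0.022. Leaving out each library gave -0.15 to 0.22 for Rpl32, -0.072 to 0.26 for Rpl7, -0.72 to 0.21 for Rpl12 and -0.28 to 0.00043 for Rpl36al.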
